A study of Mus musculus with 67 samples.

Results

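Meis and Pbx genes encode homeodomain cofactors of the TALE class, and the open chromatin around Meis1, Meis2, Meis3, Pbx2, Pbx3 and Pbx4 was followed from neuromesodermal progenitors (NMPs) into the progenitors of the ventral spinal cord. A chromatin element was taken as a member when the authors' annotation, which gives the gene with the nearest transcription start site (TSS), named 1 of these 6 genes. This gave 94 of 111638 elements: 48 for Meis1, 27 for Meis2, 9 for Pbx3, 7 for Meis3, 2 for Pbx4 and 1 for Pbx2.

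The values come from CaTS-ATAC, in which mouse embryonic stem cells of the HM1 line were differentiated, fixed, treated with Tn5 transposase, stained for intracellular transcription factors and flow sorted into cell types. NMPs at day 3 (3 samples) had received bFGF and LGK, then bFGF, CHIR99021, SB-431542 and DMH1. From day 3 all other cells received 100 nM retinoic acid (RA) with the Smoothened agonist SAG, and were sorted at days 4, 5 and 6 as p0-1 (0 or 10 nM SAG; 6, 6 and 5 samples), p2 (10 or 100 nM; 6, 6 and 6), pMN (100 or 500 nM; 6, 5 and 4) or p3 progenitors (100 or 500 nM; 5, 5 and 4). The samples within a condition are independent differentiations, 67 samples in 25 conditions, and a type and day below pools its SAG concentrations. Pooled samples are not all independent of each other. At day 5, samples of a type with the same replicate number deviated alike at its 2 SAG concentrations (lowest r 0.312, in p2). The main tests use no replicate block and so treat pooled samples as independent.

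MEIS and PBX proteins bind DNA as partners of each other and of Hox proteins, and shape which sites Hox proteins occupy along the hindbrain and spinal cord. PBX proteins are held in the nucleus by their MEIS partners, and several Meis genes are known targets of retinoic acid. Meis1 and Meis2 are broadly used in neural progenitors and limb, Meis3 is best known from hindbrain patterning, and Pbx2, Pbx3 and Pbx4 are paralogs that bind the same kind of site, with Pbx3 known for a part in spinal motor circuits.

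Most marker genes were highest in the type they mark. In this check and below, a level is a mean ± SD of normalized counts, the reads in an element divided by the sample's size factor. The TSS element of T held 1175 ± 113 in NMPs and 276 ± 103 in day 4 p0-1, and that of Cdx2 3686 ± 514 and 702 ± 297, with both NMP genes higher in NMPs, while the neural genes Sox1 and Sox2 held 1475 ± 228 and 1513 ± 91.0 in NMPs and 2505 ± 339 and 1570.3 ± 326 in p0-1. At day 6, Olig2 was highest in pMN (2325 ± 30.3, against 1005 ± 109 in p3 and 408 ± 65.6 in p0-1) and Dbx1 in p0-1 (2549 ± 278, against 1055 ± 58.1 in pMN). Nkx6-1 held 1431 ± 243 in p0-1 and 2586 ± 59.6 in pMN, and Pax6, used here as a dorsal marker, 3889 ± 318 in p0-1, 3208 ± 131 in pMN and 1696 ± 209 in p3. For p3, Foxa2 was the marker analysed here, with 1662 ± 486 in p3 and 277 ± 55.4 in pMN at day 6, but it also held 1494 ± 212 in NMPs, so it tells p3 from pMN and not from NMPs. Libraries held 9298160 to 29985325 reads in elements (median 20254011), and the shallowest was from p3 at day 4 with 100 nM SAG. Each sample is a bulk of sorted cells, so a smaller share of cells with an open element and less openness per cell cannot be told apart.

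Most of the member elements lie far from a promoter. Introns hold 61 of the 94 (64.9 percent, against 41.1 percent of all elements) and intergenic DNA 26 (27.7 against 44.2 percent), with 3 at promoters. Meis1 spreads its 48 elements over 470 kb of chromosome 11, 25 in introns and 22 in intergenic DNA, and Meis2 has 24 of its 27 in introns on chromosome 2. The median distance to the TSS is 93.8 kb, against 32.6 kb over all elements. Of the 94, 39 (41.5 percent) have a mean above 100 normalized counts, against 28.4 percent of all.

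The start sites were open at every stage. The Meis1 TSS element (Interval_17232) ranged from 1518 ± 145 in p2 at day 4 to 2377 ± 410.1 in p0-1 at day 6, a ratio of 1.57, and ordering the 13 cell types and days by level put all 12 neighbours within 1 SD of each other. Between the same groups, the Pbx3 TSS element (Interval_67686) ranged from 2039 ± 177 to 2694 ± 209 and that of Pbx4 (Interval_118606) from 1300.0 ± 142 to 1950.3 ± 403, and that of Pbx2 (Interval_54789) went from 414 ± 60.5 in day 4 p3 to 556 ± 43.1 in NMPs, again with neighbours within 1 SD throughout. Groups further apart can still differ, since the Meis1 TSS element held 1580 to 1887 in pMN at day 4 and 2158 to 2487 at day 6. The Meis3 TSS element (Interval_108013) went from 621 ± 79.6 in p2 at day 4 to 1207 ± 100.4 in pMN at day 6. In NMPs it held 1018, 1043 and 1456, above every day 4 sample of p2, pMN and p3 (at most 719, 782 and 749.6). The day 4 p0-1 samples (553 to 1055) overlapped those of NMPs. So NMPs already carried open start sites at these genes, including Meis1, before retinoic acid was given. The nearest element of Meis2 (Interval_71591, in intron 2, 3.0 kb from the TSS) was highest in NMPs, at 1140.5, 1175 and 1306, and held 440.3, 531, 552, 576 and 597 in p3 at day 4. The NMP samples all lie above every day 4 p3 sample. Its log2 ratio from NMPs to day 4 was -1.06, -1.08, -1.0 and -1.16 in p0-1, p2, pMN and p3 (adjusted p 0.000323, 2.18e-07, 3.22e-07 and 1.68e-07), short of the fold threshold below.

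The largest openings at these loci came between NMPs and day 4, when retinoic acid, with or without SAG, replaced the factors given to NMPs. An element was called when its limma p, adjusted by Benjamini-Hochberg over all elements with a mean above 100 in the samples compared, was under 0.01 and the log2 ratio of mean normalized counts plus 1 was above 2 in size. From NMPs to day 4, 10 of 29 tested member elements were called higher in p0-1 (14.4 percent of all tested elements), 12 of 31 in p2 (16.4 percent), 13 of 31 in pMN (16.9 percent) and 10 of 30 in p3 (13.8 percent). In each type 1 member was called lower, beside 6.21, 7.13, 7.41 and 7.74 percent of all. Counting an element once, 17 of 35 tested were called in at least 1 type, where 28.7 percent of all tested elements were. They belong to Meis1 (11 of 17 tested), Meis2 (5 of 9) and Pbx4 (1 of 2). By limma and by voom, 0 of 3 Meis3, 0 of 3 Pbx3 and 0 of 1 Pbx2 elements were called, though 3, 2 and 1 had an unadjusted p under 0.05 in at least 1 type. With no filter, Interval_67682 of Pbx3 was higher in p0-1, p2, pMN and p3 (2.95, 3.81, 3.53 and 4.48, adjusted p 0.000246 or less) and Interval_67677 of Pbx3 in p2 (2.04, adjusted p 5.53e-06), both chosen after their values were seen, and Interval_67679 in p3 (3.39, adjusted p 0.000181). The 4 comparisons share the same 3 NMP samples, so their counts are not independent. In day 4 p0-1, the library with 10 nM SAG of replicate 3 stood apart, but not in 1 direction. T and Cdx2, summed over 21 elements, held 4007 in it, 2076 to 2877 in the other day 4 p0-1 samples and 8186 to 9830 in NMPs. Sox1 and Sox2, summed over 23 elements, went away from NMPs: 14724 in this library, 11524 to 13930 in the other day 4 p0-1 samples and 7500 to 9330 in NMPs. This library is the lowest of these p0-1 samples at Interval_71570 (248), but not at Interval_17200 (550, where the lowest held 545).

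Inside Meis1, the intron 9 element Interval_17200 (133.1 kb from the TSS) was nearly closed in NMPs, with 6.74, 18.3 and 21.8 normalized counts, and held 446, 489, 493, 496 and 534 in day 4 p3, 545 to 1214 (median 865, n = 6) in p0-1, 782 to 1317 (median 956, n = 6) in p2 and 1098 to 1589.6 (median 1182, n = 6) in pMN. No NMP sample comes near any day 4 sample, and the p3 samples all lie below those of the other types. It rose in each type, by a log2 ratio of 5.67, 5.89, 6.26 and 4.89 (p0-1, p2, pMN, p3; adjusted p 2.72e-09, 9.74e-12, 7.43e-13 and 6.26e-12). In Meis2, the intron 8 element Interval_71570 (141.4 kb from the TSS) held 1.35, 9.69 and 9.70 in NMPs and 264, 375, 426, 427 and 471 in day 4 p3, with 248 to 647 (median 503, n = 6) in p0-1, 399.9 to 598 (median 459, n = 6) in p2 and 436 to 529 (median 474, n = 6) in pMN. Its day 4 samples overlap between the types and none falls near NMPs. The log2 ratios were 5.91, 5.91, 5.92 and 5.64 (adjusted p 8.83e-09, 2.95e-11, 5.13e-12 and 4.58e-11). Thus the most changed element of Meis1 and of Meis2 opened in every neural type at once, deep inside genes that were already open near the start site.

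Other elements of both genes joined them. Interval_17224 in Meis1 intron 7 rose by 4.04, 4.03, 4.14 and 3.36 in p0-1, p2, pMN and p3, from 27.9, 32.3 and 33.7 in NMPs to 298, 306, 313, 367 and 375 in day 4 p3, with no overlap. The distal Interval_17180, 396.9 kb from the Meis1 TSS, rose in p2, pMN and p3 (5.08, 5.50 and 4.57) and was under the count filter in p0-1. Interval_17178, 433.9 kb from the TSS and chosen after its values were seen, went from 6.60 ± 3.38 in NMPs to 328 ± 91.3 in p0-1 and 165 ± 35.6 in p3 (log2 ratio 5.44 and 4.45, adjusted p 5.17e-09 and 3.20e-09). Interval_17198, the highest distal element of Meis1, had log2 ratios from 0.17 in p3 to 0.55 in p0-1, and Interval_71561, the highest of Meis2, from 1.06 to 1.18, so none passed the fold threshold. The highest distal element of Meis3, Interval_108012, 2.5 kb upstream, had 1.62 in p0-1 and 0.49 in p3 and was not called.

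Pbx4 went the other way. Interval_118607, in an intron 17.5 kb from the Pbx4 TSS, held 177, 317 and 381 in NMPs, 24.0, 27.6, 30.4, 40.4 and 53.1 in day 4 p3 and 4.69, 16.3, 18.0 and 23.3 in day 6 pMN, so every NMP sample lies above every sample of those groups. It fell in all 4 types, with log2 ratios of -2.86, -3.11, -3.25 and -3.02 (adjusted p 3.29e-06, 3.22e-08, 1.02e-08 and 8.80e-08). Of the smaller Meis3 elements, Interval_108010 and Interval_108011 lie inside the neighbouring gene Slc8a2 and were highest in NMPs (89.6 ± 13.1 and 218 ± 27.5), and both were chosen after their values were seen.

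The tested members had higher median log2 ratios over this step than all tested elements, before and after centring, and the order held with no filter. The median log2 ratio of members was 0.55, 1.06, 1.10 and 0.33 in p0-1, p2, pMN and p3, where that of all tested elements was -0.39, -0.51, -0.49 and -0.46. Centring each sample on its own median moves the all-element medians by -0.17, -0.26, -0.26 and -0.20 and gives the members 0.65, 0.82, 0.85 and 0.16. Among the genes, Meis1 had medians of 2.63, 3.13, 3.30 and 2.99 and Meis2 of 1.65, 1.42, 1.76 and 1.26, while Meis3 had -0.76, -0.91, -0.78 and -0.87, Pbx2 -0.15, -0.26, -0.19 and -0.42, Pbx3 -0.25, -0.32, -0.32 and -0.09 and Pbx4 -1.48, -1.72, -1.76 and -1.54. An element can pass the filter through its change alone, so the medians were also taken with no filter, over all 94 members and all 111638 elements: 1.32, 1.38, 1.48 and 1.19 for members and 0.06, 0.16, 0.18 and 0.07 for all. By gene these were 2.02, 2.05, 2.05 and 1.52 for Meis1, 1.49, 1.41, 1.52 and 1.47 for Meis2, 0.47, 1.03, 1.53 and 1.11 for Pbx3 and -1.48, -1.54, -1.65 and -1.71 for Meis3. Over the same step, the mesoderm genes Tbx6 and Meox1, summed over their 10 elements, held 2329, 2454 and 2611 in NMPs and 1243, 1324, 1374, 1380.2 and 1437 in day 4 p3. Tubb3 and Elavl3, the neuron genes, held 3644, 4262 and 4308 and 2037, 2322, 2402, 2518 and 2662 over 6 elements. None of these genes was at 0, and their part in the result was not tested.

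The central 300 bases of the elements that open most in Meis1 and Meis2 are shown so that the sites named below can be placed (mm10, plus strand; capitals mark a match to the Pbx-Hox letters TGATNNAT in Meis1 and to the Meis letters TGACAG, read here from the minus strand, in Meis2).
Meis1 Interval_17200 chr11:18885736-18886035: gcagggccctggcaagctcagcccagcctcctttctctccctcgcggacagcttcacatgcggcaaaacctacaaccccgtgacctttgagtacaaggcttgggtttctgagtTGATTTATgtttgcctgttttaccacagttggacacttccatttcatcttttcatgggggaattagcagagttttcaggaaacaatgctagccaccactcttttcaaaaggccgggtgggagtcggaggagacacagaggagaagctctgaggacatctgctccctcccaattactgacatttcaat
Meis2 Interval_71570 chr2:115923507-115923806: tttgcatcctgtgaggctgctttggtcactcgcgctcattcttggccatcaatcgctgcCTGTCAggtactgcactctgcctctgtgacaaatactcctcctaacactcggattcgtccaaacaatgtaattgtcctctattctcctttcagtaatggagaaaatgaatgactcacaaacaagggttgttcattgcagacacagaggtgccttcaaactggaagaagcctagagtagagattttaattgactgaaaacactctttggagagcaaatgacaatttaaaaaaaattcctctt

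From day 4 to day 6 fewer members were called, and those called under the filter with all samples, uncentred, opened. Members called higher were 1 of 34 in p0-1 (6.93 percent of all tested elements), 1 of 39 in p2 (8.2 percent), 3 of 40 in pMN (7.94 percent) and 6 of 41 in p3 (7.44 percent). None was called lower by limma in any type (2.07, 1.9, 1.98 and 1.69 percent of all), and voom also gave 0 lower in each. Unadjusted p was under 0.05 for 25, 31, 34 and 29 members (56.0, 73.9, 72.2 and 61.8 percent of all), in either direction. In at least 1 type 7 of 46 tested were called, against 17 percent of all elements: 4 of Meis1, 2 of Meis2 and 1 of Pbx3. Median log2 ratios of members were 0.61, 0.60, 0.53 and 0.79 (p0-1, p2, pMN, p3), with 0.23, 0.27, 0.25 and 0.18 over all elements, and with no filter 0.42, 0.35, 0.47 and 0.55, with 0.05, 0.05, 0.01 and 0.04 over all. With no filter, 6, 7, 8 and 12 of 94 members were called higher in p0-1, p2, pMN and p3 (7.37, 9.32, 8.57 and 9.18 percent of all elements) and 2, 4, 2 and 0 lower (3.34, 4.01, 4.13 and 3.80 percent), the lower ones all chosen here after their values were seen: Interval_71571 of Meis2 (-3.24, -3.22 and -3.61 in p0-1, p2 and pMN, adjusted p 0.000139, 1.43e-07 and 3.76e-08), Interval_71565 of Meis2 (-2.02 and -2.57 in p0-1 and p2), Interval_67677 of Pbx3 (-2.11 and -2.25 in p2 and pMN) and Interval_67682 of Pbx3 (-2.31 in p2). In p3, centring samples moves the all-element median by -0.16 and the split from 6 higher and 0 lower to 3 higher and 1 lower. Without replicate 2, Interval_71562 of Meis2, chosen after its values were seen, is called lower in p3 (-2.251, adjusted p 0.0002349), and without replicate 3 Interval_108012 of Meis3 is called higher in p3 (2.019, adjusted p 2.062e-06).

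Interval_17207 in Meis1 intron 8 (111.7 kb from the TSS) was called from day 4 to day 6 in 3 types. It held 14.1, 17.1, 25.5, 26.3 and 38.5 in p3 at day 4 and 156, 194, 323 and 351 at day 6, 29.5 to 69.8 (median 48.2, n = 6) and then 207, 237, 272 and 277 in pMN, and 33.6 to 94.6 (median 41.4, n = 6) and then 155 to 286 (median 273, n = 6) in p2. In p0-1, where it was under the filter and so not tested in the main fit, it went from 5.89 to 48.3 (median 36.8, n = 6) to 63.4, 78.9, 102, 132 and 176 (log2 ratio 1.75, not called with no filter). In each of the 4 types every day 6 sample is above every day 4 sample. With no filter it had already risen from NMPs to day 4, by 2.56 in p2 and 2.56 in pMN. The log2 ratios were 3.35, 2.32 and 2.29 (adjusted p 3.67e-06, 4.57e-07 and 5.10e-07), and the change in p3 minus that in pMN was 1.03 (adjusted p 0.160), not called. Without replicate 2 the p2 value drops just under the threshold (1.997, adjusted p 0.000247). In Meis2 intron 7, Interval_71582 (63.0 kb from the TSS) held 45.1 to 61.2 (median 55.2, n = 6) in pMN at day 4 and 274, 299, 301 and 329 at day 6, and in p3 37.9, 48.4, 57.8, 63.8 and 68.2 and 311, 362, 363 and 396. Days do not overlap in either type, and the increase was 2.44 and 2.67 (adjusted p 2.12e-09 and 2.97e-07), with a difference between the types of 0.23 (adjusted p 0.492).

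Interval_17224, already open at day 4, kept opening: from 515 to 682 (median 520.1, n = 6) to 2051, 2404, 2561 and 2585 in pMN and from 298, 306, 313, 367 and 375 to 883, 1035, 1692 and 1758 in p3. All day 6 samples stand above the day 4 ones. In day 6 p3 the lower 2 samples are both replicate 3 and the higher 2 both replicate 2, 1 at each SAG concentration. The day 6 p3 samples of Interval_17207, Interval_17200, Interval_71570 and, from below, Interval_17208 and Interval_17230 split by replicate in the same way as those of Interval_17224. It rose by 2.08 and 2.01 (adjusted p 1.28e-09 and 4.52e-06), values that pass the threshold narrowly: the p3 call is lost when samples are centred (1.875), as a difference of VST values (1.919), without replicate 2 (1.492) or without the p3 100 nM day 4 libraries (1.976), and the pMN call without replicate 2 (1.967). Interval_17180 rose in p0-1, from 59.7 to 199 (median 102, n = 6) to 397, 477, 591, 649 and 652 without overlap (2.25, adjusted p 7.49e-06; 1.985 without replicate 2). The call count in p3 also takes in Interval_17185 of Meis1 (2.27; 1.918 without replicate 2) and Interval_71589 of Meis2 (3.06, adjusted p 0.000275), both chosen after their values were seen. Whether the late openings differ between p0-1 or p2 and the ventral types was not tested.

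Under the filter, Pbx3 contributed a single call, in p3. Interval_67678, the highest distal element of Pbx3 (intron 2, 122.2 kb from the TSS), was not called: it held 341, 415 and 426 in NMPs, with log2 ratios from -0.52 in p3 to -0.46 in p2 from NMPs to day 4, and from 0.31 in p3 to 0.72 in pMN from day 4 to day 6. Interval_67679, in Pbx3 intron 2 (114.3 kb from the TSS), held 0, 3.23 and 5.40 in NMPs, 14.1, 15.2, 50.0, 52.6 and 66.7 in day 4 p3 and 134, 148, 162 and 295 in day 6 p3, against 3.59, 6.01, 11.3 and 12.8 in day 6 pMN. The day 6 p3 samples are above every other sample listed, and the lowest day 4 p3 samples are a pair with 100 nM SAG from the shallowest condition. It rose by 2.19 from day 4 to day 6 (adjusted p 0.000607), and without the p3 100 nM day 4 libraries the value is 1.615 (adjusted p 0.007395), under the threshold. When samples are centred, or without replicate 3, its mean falls below the filter and it is not tested. Between pMN and p3 its mean is below the filter of 100, so it was not tested there; without replicate 2 it passes the filter and is called higher in p3 at day 6 (4.135, adjusted p 7.238e-05), and with no filter the log2 ratio is 3.55 at day 5 (adjusted p 4.28e-07) and 4.30 at day 6 (adjusted p 3.17e-06), and the change in p3 minus that in pMN is 2.44 (adjusted p 0.00092). In p2 it held 2.37 to 7.59 (median 5.60, n = 6) at day 4 and 4.89 to 46.8 (median 11.3, n = 6) at day 6, also below every p3 sample of that day. It was under the filter in p2, and with no filter its log2 ratio of 1.51 was not called. A difference from p3 was not tested.

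Neuron genes moved with day. Summed over the 6 elements of Tubb3 and Elavl3, levels went from 1988 to 2371 (median 2264) at day 4 to 2649 to 5744 (median 5103) at day 6 in p2, from 2077 to 2557 (median 2386) to 4492, 4536, 5054 and 5111 in pMN, from 2037, 2322, 2402, 2518 and 2662 to 2845, 2955, 3654 and 4279 in p3 and from 1849 to 2843 (median 2095) to 2262, 2885, 3123, 3299 and 3655 in p0-1. Elavl3 held the larger share (2973 ± 77.2 in day 6 pMN, with 1825 ± 384 for Tubb3), neither gene was at 0, and their part in the result was not tested.

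Between pMN and p3, under the filter, members were called only lower in p3 in the main fit. With a replicate block, in 1 fit of all samples, or without replicate 2, a member was also called higher in p3. Without the block, none of 33, 41 and 44 tested members was called higher in p3 by limma at days 4, 5 and 6 (0.179, 1.99 and 5.03 percent of all tested elements), with voom also at 0, and 1, 1 and 2 were called lower (1.07, 3.68 and 5.97 percent). At unadjusted p under 0.05 there were 13, 25 and 31 members (37.4, 54.6 and 49.5 percent of all), in either direction. Counted once, 2 of 47 tested members differ on at least 1 day, against 10.8 percent of all elements, and both belong to Meis1. The median log2 ratio of members was -0.23, -0.21 and -0.20, with 0.08, 0.08 and 0.00 over all elements, and with no filter -0.17, -0.23 and -0.14, with 0.01, 0.04 and -0.01 over all. With no filter at day 6, 5 of 94 members were called higher in p3 and 4 lower (6.88 and 6.51 percent of all elements). Of these, and chosen after their values were seen, Interval_17203 of Meis1 (2.78, adjusted p 2.61e-05), Interval_67682 of Pbx3 (2.17, adjusted p 0.000332) and Interval_71571 and Interval_71572 of Meis2 (2.38 and 2.02, adjusted p 0.000295 and 9.99e-05) were higher, and Interval_17183 of Meis1 (-2.26, adjusted p 0.00577) and Interval_71580 of Meis2 (-2.25, adjusted p 0.000842) were lower. With replicate number as a block, Interval_71589 of Meis2, also chosen after its values were seen, is called higher in p3 at day 6 (2.04, adjusted p 2.116e-05; 0.0360 without the block), so 3 of 47 members differ on at least 1 day, against 10.9 percent of all elements. Both types received 100 or 500 nM SAG.

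Interval_17208, in Meis1 intron 8 (105.2 kb from the TSS), is the clearest of these. In pMN it held 154 to 229 (median 192, n = 6) at day 4, 178, 238, 262, 262 and 334 at day 5 and 249.9, 336, 375 and 474 at day 6, while p3 held 28.3, 43.4, 48.0, 54.7 and 56.9, then 40.7, 43.1, 48.2, 51.6 and 58.3, then 32.0, 52.9, 66.0 and 71.6. On every day all pMN samples are above all p3 samples, and p3 stays close to its day 4 level. The log2 ratios from pMN to p3 were -2.05, -2.37 and -2.67 (adjusted p 4.61e-07, 1.15e-07 and 3.59e-05). The day 4 value is close to the threshold and leaves it without replicate 1 (-1.907), without the p3 100 nM day 4 libraries (-1.907) or as a difference of VST values (-1.845). At day 6, p0-1 held 171, 191, 331, 339 and 401 and p2 229 to 486 (median 328, n = 6), both overlapping pMN, so p3 is the type with the low level. From NMPs (7.27, 12.1 and 20.5) it had risen in p2 and pMN by 3.71 and 3.78 (adjusted p 4.89e-09 and 5.16e-10). With no filter it was also called higher in p0-1 (3.01, adjusted p 2.67e-05). The change from day 4 to day 6 in p3 minus that in pMN was -0.61 and was not called (adjusted p 0.153).

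Interval_17230, in Meis1 intron 6 and 8.5 kb from the TSS, had the same direction at day 6: 103, 136, 235 and 304 in pMN and 22.3, 27.5, 40.4 and 44.5 in p3, without overlap (-2.50, adjusted p 0.000533; voom adjusted p 0.01519, not called). At day 5 it held 128, 156, 169, 192 and 203 in pMN and 20.8, 27.3, 27.8, 34.1 and 39.5 in p3, with a mean below the filter; without replicate 3 it is tested there and called (-2.443, adjusted p 3.05e-06). Interval_17200 also stayed lower in p3, with 2089, 2357, 2415 and 2446 in day 6 pMN and 753, 926, 1215 and 1291 in day 6 p3, a log2 ratio of -1.15 (adjusted p 0.000175) that is short of the fold threshold. Interval_17178, chosen after its values were seen, held 165 ± 35.6 in p3 at day 4 and 44.4 ± 4.94 at day 6 (-1.87, adjusted p 1.39e-05). That value and its difference from pMN (-1.99, adjusted p 1.21e-05) lie just under the threshold and pass it when samples are centred (-2.022 and -2.093), and the difference also without replicate 1 (-2.005) or 2 (-2.053). The Meis1 TSS element held 2307 ± 139.8 in pMN and 1950.0 ± 139 in p3 at day 6 (log2 ratio -0.24, adjusted p 0.0135).

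Shh, a gene of the floor plate, was analysed beside this contrast. All neural types were gated as SOX2 positive, and p3 also as NKX2.2 positive and OLIG2 negative. Summed over its 13 elements it held 467 ± 62.3 in pMN and 773 ± 197 in p3 at day 4, and 1178 ± 340.1 in pMN and 3693 ± 1329 in p3 at day 6, at 0 in neither type. The mesoderm genes Tbx6 and Meox1 held 1592, 1600.0, 1682 and 1992 in pMN and 2039, 2059.5, 2235 and 2256 in p3 at day 6; by gene, Tbx6 held 827 ± 68.3 in pMN and 693 ± 104 in p3, and Meox1 889 ± 227 and 1455 ± 49.9, so the 2 go opposite ways. The neuron genes, as given above, were higher in pMN at day 6 but not at day 4. In day 6 p3, Foxa2 summed over its 32 elements held 15020 and 16340 in replicate 3 and 10909 and 10167 in replicate 2. Interval_17208 and Interval_17230 split the other way, as given above. The part of the marker genes in the result was not tested.

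The central 300 bases of the p3-rising Pbx3 element and of the Meis1 element that is low in p3 are given because they carry the contrast of pMN and p3 (mm10, plus strand; capitals mark a Pbx-Hox match, TGATNNAT, and a Foxa match, TGTTTAC, read from the minus strand, in Pbx3; the Meis1 element has no match).
Pbx3 Interval_67679 chr2:34257597-34257896: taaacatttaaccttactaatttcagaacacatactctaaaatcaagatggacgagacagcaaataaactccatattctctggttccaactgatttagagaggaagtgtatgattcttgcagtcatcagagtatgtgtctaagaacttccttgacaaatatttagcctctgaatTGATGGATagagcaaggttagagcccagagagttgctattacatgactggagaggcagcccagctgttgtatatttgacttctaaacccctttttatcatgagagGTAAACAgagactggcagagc
Meis1 Interval_17208 chr11:18913635-18913934: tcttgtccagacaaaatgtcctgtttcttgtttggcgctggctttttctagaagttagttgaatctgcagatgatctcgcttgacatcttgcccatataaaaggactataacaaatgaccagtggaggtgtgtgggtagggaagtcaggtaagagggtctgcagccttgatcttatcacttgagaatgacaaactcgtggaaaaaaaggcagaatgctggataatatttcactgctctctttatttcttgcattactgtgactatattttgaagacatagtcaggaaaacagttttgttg

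Between p0-1 and pMN a single member was called under the filter. Of 33, 44 and 43 tested at days 4, 5 and 6, limma called none higher in pMN (0.497, 1.51 and 2.19 percent of all tested elements) and 0, 1 and 0 lower (0.0134, 0.414 and 0.714 percent); voom gave the same counts, and 13, 27 and 21 members were under an unadjusted p of 0.05 (23.8, 49.8 and 40.2 percent of all). Over the days 1 of 48 was called, where 3.33 percent of all elements were. It is Interval_17211, in Meis1 intron 8 (83.4 kb from the TSS). At day 5 it held 159 to 376 (median 186, n = 6) in p0-1 and 25.4, 46.2, 63.1, 68.6 and 69.9 in pMN, without overlap (-2.02, adjusted p 7.96e-05), and at day 6 86.2, 101, 104, 164 and 234 and 49.1, 50.2, 62.9 and 66.3 (-1.26, adjusted p 0.0141). The call is lost without replicate 3 (-1.649, adjusted p 0.001932) and as a difference of VST values (-1.811). Without replicate 1, Interval_17180 is also called, higher in pMN at day 4 (2.223, adjusted p 0.0001144). Interval_71580 in Meis2 intron 8, chosen after its values were seen and under the filter, held 4.74 ± 1.63 in p0-1, 90.5 ± 11.3 in pMN and 18.3 ± 20.2 in p3 at day 6; with no filter its log2 ratio from p0-1 to pMN is 2.55 at day 5 (adjusted p 7.52e-07) and 3.99 at day 6 (adjusted p 2.65e-06). The types p0-1 and pMN were grown at different SAG concentrations, so cell type and concentration cannot be told apart here. Neuron genes held 1710.1 to 2614 (median 2449) in p0-1 and 3550.2, 3617, 3773, 3876 and 3925 in pMN at day 5, and mesoderm genes 2147 to 2577 (median 2436) and 1687, 1831, 1962, 2069.9 and 2227; their part in the result was not tested. Median log2 ratios of members were 0.01, 0.09 and 0.20 and those of all elements -0.11, -0.09 and -0.08, and centring moves the day 6 median of all by -0.11.

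Within a type at day 5, the SAG concentration left these loci without a call. From the lower to the higher concentration, with a threshold of 1 for the log2 ratio, limma called 0 of 43 members in p0-1 (0.00318 percent of all tested elements higher, 0 percent lower), 0 of 41 in p2, 0 of 41 in pMN and 0 of 38 in p3, where 0 percent of all were called in either direction. With replicate number as a block, still 0 members were called, while 0.602 percent of all were called higher and 0.385 percent lower in p0-1, and 0.0592 and 1.52 percent in p2. Unadjusted p was under 0.05 for 13, 5, 1 and 0 members (15.1, 11.6, 2.65 and 0.491 percent of all), and voom called 0. Over the types 0 of 52 tested members were called and 0.00251 percent of all. The element that opens most from NMPs, Interval_17200, had 0.30 in p0-1 (unadjusted p 0.0304) and -0.07 in pMN (unadjusted p 0.509). The change from day 4 to day 6 in p3 minus that in pMN was called for 0 of 40 members by limma (1.32 percent of all higher, 1.02 percent lower) and 0 by voom, with 18 at unadjusted p under 0.05 (29.4 percent of all); centring moves its all-element median by -0.11.

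The levels taken over all elements of a gene differ in how many steps between types and days they resolve. The median level over the 48 Meis1 elements was 13.5 ± 1.86 in NMPs, 52.0 ± 5.03 in day 4 p3 and highest in p0-1 at day 5 (116 ± 16.2), with day 6 p0-1 and pMN next (99.2 ± 12.1 and 98.8 ± 12.5); 4 of its 12 steps are above 1 SD, those from NMPs to day 4 p3, from day 4 to day 5 p3 (61.6 ± 3.82), from day 4 pMN to day 6 p3 (69.0 ± 4.71 and 76.3 ± 4.31) and from day 6 to day 5 p0-1. Meis2 was also lowest in NMPs (13.7 ± 1.96) and highest in pMN at day 6 (94.3 ± 7.56), with 11 of 12 neighbours within 1 SD. Pbx3 went from 7.50 ± 1.82 in NMPs to 61.2 ± 12.6 in p2 at day 6. Meis3 was highest in NMPs (97.5 ± 4.73) and lowest in day 4 p3 (29.8 ± 5.88). For Pbx3 and Meis3, as for Meis2, only NMPs stand more than 1 SD from their neighbour, and for Pbx2 and Pbx4 all 12 neighbours lie within 1 SD. So beyond NMPs the neighbours in the order are not resolved for these 5 genes, but groups further apart can be. At day 6, Meis2 held 86.2 to 104 in pMN and 44.3 to 78.4 in p0-1. Pbx3 held 41.6 to 78.3 in p2 and 14.5 to 27.0 in p0-1 at that day, also without overlap. Under the filter with all samples, uncentred, the called elements of Meis1 and Meis2 opened on leaving the NMP state and no Meis3 element was called there. Interval_17229 of Meis1 is called lower in p3 when samples are centred (-2.088, adjusted p 6.588e-16) or without the p3 100 nM day 4 libraries (-2.0, adjusted p 4.973e-08). Interval_71576 of Meis2 was lower with no filter in p2 and p3 (-2.08 and -2.03, adjusted p 2.68e-06 and 2.46e-05). Both were chosen after their values were seen. With no filter, Interval_108016 of Meis3, at the end of the neighbouring gene Dhx34, was lower in p0-1, p2, pMN and p3 (-3.73, -3.69, -3.44 and -4.43, adjusted p 1.19e-05, 1.49e-07, 3.41e-08 and 3.21e-07) and Interval_108014 in p2 and pMN (-2.12 and -2.30), both chosen after their values were seen.

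Elements of a gene did not move as a block. Over the 25 condition means, the median correlation between pairs of Meis1 elements was r = 0.358, with 441 of 1128 pairs above 0.5 and 307 below 0. For Meis2 it was 0.253, and its element nearest the TSS had a median r of -0.369 with the other 26, itself highest in NMPs. Pbx3 elements had a median of 0.0601 and Meis3 elements of 0.522. By the mean VST value of a gene's elements, Meis1 and Meis2 had r = 0.804, which ranks Meis2 only 1365 of 11986 genes for likeness to Meis1, and Meis3 ran against Meis2 (r = -0.583). Among these genes, all with at least 3 elements, the closest to Meis1 were Gria1 (r = 0.983), Cnr1 (0.982) and Nyap2 (0.980), and to Meis2 4930564C03Rik (0.971), Plcb1 (0.967) and Trim32 (0.964). Meis3 was closest to Tubg2 (0.943), Sirt4 (0.922) and Tent5b (0.919), and Pbx3 to Clasp2 (0.968), Samd5 (0.966) and Sepsecs (0.955). Gria1 and Cnr1 are neuronal genes, for a glutamate receptor subunit and a cannabinoid receptor. All of these correlations use the same 25 conditions, with the step from NMPs in them, and are descriptions only.

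Relatives and retinoic acid genes give the setting. The other TALE genes (Pknox1, Pknox2, Tgif1, Tgif2, Irx1, Irx2, Irx3, Irx5, Irx6 and Mkx, with the Pbx partner Pbxip1) hold 167 elements, of which 14 of 57 were called higher and 3 lower from NMPs to day 4 p0-1 (14.4 and 6.21 percent of all tested elements), with a median log2 ratio of 0.26, below the 0.55 of the Meis and Pbx members. Irx3, a gene of intermediate neural progenitors, gave 6 of those higher calls. From day 4 to day 6 in p3, 3 of 62 TALE elements were higher and 1 lower (7.44 and 1.69 percent of all), and from pMN to p3 at day 6, 2 of 63 were higher and 5 lower (5.03 and 5.97 percent). For the genes of retinoic acid response and turnover (Rara, Rarb, Rarg, Cyp26a1, Cyp26b1, Crabp1, Crabp2 and Dhrs3; 88 elements), 9 of 30 were called higher and 0 lower in p0-1 at day 4, with a median log2 ratio of -0.21, and 11 of 32 higher and 2 lower in p3 (13.8 and 7.74 percent of all). Rarb, a direct target of retinoic acid, had its TSS element at 308 ± 62.7 in NMPs and 1640.3 ± 171 in day 4 p0-1. The TSS elements of the others moved in both directions between the same groups: Cyp26b1 went from 36.4 ± 7.40 to 165 ± 28.6, Crabp2 from 1562 ± 90.4 to 2188 ± 382, Crabp1 from 486 ± 42.7 to 439 ± 137, Rara from 1615 ± 244 to 1328 ± 308, Rarg from 929 ± 141 to 332 ± 90.9, Cyp26a1 from 417 ± 40.6 to 223 ± 68.3 and Dhrs3 from 998 ± 17.8 to 716 ± 129. Retinoic acid was given to all cells after day 3, in place of the factors that NMPs had received, and in part of the conditions with SAG. Time, retinoic acid and these other changes of medium cannot be told apart.

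Sequence matches at the members were close to those of all elements. In the central 300 bases on both strands, the Meis letters TGACAG stood in 25 of 94 members (26.6 percent, against 23.2 percent of all 111638 elements): 14 of Meis1, 6 of Meis2, 4 of Pbx3 and 1 of Meis3. The Pbx-Hox letters TGATNNAT (N is any base) stood in 13 (13.8 against 14.8 percent) and the Foxa letters TGTTTAC in 5 (5.32 against 4.96 percent). No member held the Meis-Pbx composite TGATTGAC (0.786 percent of all) or a pair of AGGTCA in line, spaced by 5 bases, as bound by retinoic acid receptors (0.0591 percent). The last 4 letters of TGATTGAC are the first 4 of TGACAG, so both can share bases. Of the 24 members called in any comparison, 7 held the Meis letters and 2 the Pbx-Hox letters, namely Interval_17200 of Meis1 and Interval_67679 of Pbx3. Of the elements nearest the start sites, that of Meis1 (Interval_17232) held the Foxa letters and that of Pbx3 (Interval_67686) the Meis letters. In the separate RefSeq promoter sequences, 250 bases before to 50 after a gene start, Meis1, Meis2, Meis3, Pbx2 and Pbx4 held none of these letters, where 19.2 percent of 32851 promoters hold TGACAG. A match says only that the letters are there, not that a protein binds.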

How the data were processed

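CaTS-ATAC reads of 67 samples in 25 conditions (17 with 3 samples, 8 with 2) were processed by the authors with the nf-core ATAC-seq workflow on mm10: consensus peaks from MACS2, reads per peak from featureCounts and a HOMER annotation. The deposited values are on a log2 scale, made by the authors with the variance-stabilizing transformation of DESeq2. They were inverted to normalized counts (size factors then gave whole reads for 100 percent of values within 0.001). Member elements are those whose annotated gene is Meis1, Meis2, Meis3, Pbx2, Pbx3 or Pbx4; of 112 so annotated, 94 are in the table of values, and the other 18 were not analysed here. The members and lists were chosen with earlier results of these data known.

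Tests used limma 3.58.1 with a mean trend in R 4.3.3 (with the data.table package, 1.17.8) on the deposited values. They took in elements whose normalized counts averaged over 100 across both groups, with Benjamini-Hochberg adjustment over all of these; a call needs an adjusted p under 0.01 and a log2 ratio of mean normalized counts plus 1 above 2 in size (SAG: above 1). The tests were tried on simulated data first. Comparisons were NMP to day 4 and day 4 to day 6 for each type, pMN to p3 and p0-1 to pMN on each day, SAG concentrations at day 5, and the day 4 to day 6 change in p3 minus that in pMN. For a gene the text names the element nearest the TSS, the highest other element, and the called elements with the largest increase and decrease from NMPs to day 4, from day 4 to day 6 (mean of the types), from pMN to p3 at day 6 and from p0-1 to pMN at day 6, or all called where there are 5 or fewer. Marker lists were T and Cdx2 (NMP), Sox1 and Sox2 (neural), Dbx1 and Pax6 (p0-1), Nkx6-1 (p2 and more ventral), Olig2 (pMN), Foxa2 (p3), Tubb3 and Elavl3 (neuron), Shh (floor plate), and Tbx6 and Meox1 (mesoderm); TALE relatives, retinoic acid genes and motif letters are listed where they are reported. Summaries, correlations and motif searches used Python 3.11.15, pandas 2.3.3 and numpy 2.4.6. Sequences are from GRCm38.p6; all 111638 elements lie on named chromosomes and 400 of 400 promoters checked were identical to the genome. The promoter search (RefSeq, GRCm38.p6) covers 5 of the 6 genes, without Pbx3.

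Whether replicate numbers pair samples was checked by correlating, over elements, the deviations of samples from their condition means. Same-numbered samples of pMN and p3 had a lowest r of 0.0444 at day 4 (10 pairs, median 0.302; 0.127 in the 5 pairs that also share the SAG concentration), 0.201 at day 5 (9 pairs, 0.293) and 0.344 at day 6 (8 pairs, 0.392), with medians of -0.0914, -0.19 and -0.392 for different numbers. For p0-1 and pMN the lowest was 0.175, 0.251 and 0.277, for pMN at days 4 and 6 0.169, and for SAG concentrations at day 5 0.364 in p0-1 and 0.312 in p2 (3 pairs each; 2 in pMN and p3). The numbers were taken to pair the samples in those comparisons, where every r is over 0.1 in 3 or more pairs, and not from NMPs to day 4 (lowest -0.193) or from day 4 to day 6 in p0-1 (lowest -0.114), p2 (0.0939) and p3 (0.087). In p2 and p3, 10 of 12 and 5 of 6 pairs are over 0.1, with medians of 0.167 and 0.164, so a pairing there is not excluded. From pMN to p3 at day 4 every r is over 0.1 only in pairs that share the SAG concentration, and the block changed no call of a member there. The pairing comes from these correlations. The study sorted types from shared dishes, but that covers only types of the same day and SAG concentration. The labels do not say what a number marks. This split by comparison was made after the calls of both fits were known.

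Depth was 9298160 to 29985325 reads in elements per sample. Elements with a mean under 100 were described by their values, or tested only in the alternative with no filter. Alternatives were voom on the recovered reads, samples centred on their median, no filter, another fold threshold, a replicate block from either set of sample numbers, 1 fit of all samples, no variance trend, a difference of variance-stabilized (VST) values, leaving out each replicate, and a 200-base motif window; a fit without the p3 100 nM day 4 libraries and the block with centring were chosen after seeing the data.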

Additional observations from a re-analysis of the deposited data

Results flagged for a closer look

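Among the 21 named elements, a sample that stood alone at 1 end of its cell type and day by a wide gap for the spread of the others, which chance gives about 1 in 20 groups of this kind, was found in 6 of 252 groups. In Meis1, Interval_17198 in p2 at day 4 has a highest sample (10 nM SAG replicate 2) at 1458 where the others hold 1245 to 1301 (gap statistic 0.719). Interval_17207 in p2 at day 4 has a highest sample (10 nM replicate 1) at 94.6, with the others at 33.6 to 47.5 (0.685). Interval_17208 in p0-1 at day 4 has a lowest sample (10 nM replicate 3) at 38.9, with the others at 96.9 to 149 (0.662). In Pbx3, Interval_67679 in pMN at day 4 has a highest sample (500 nM replicate 3) at 23.9, with the others at 5.74 to 9.84 (0.679). In Meis2, Interval_71591 in p0-1 at day 5 has a highest sample (10 nM replicate 1) at 787, with the others at 699 to 718 (0.767). Interval_71591 in p2 at day 6 has a lowest sample (100 nM replicate 3) at 591, with the others at 749 to 845 (0.662).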

How the results depend on the processing

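The main counts of called members are 17 (NMPs to day 4), 7 (day 4 to day 6), 2 (pMN and p3), 1 (p0-1 and pMN), 0 (SAG) and 0 (difference of the day 4 to day 6 changes). With no filter, where all elements are tested, they are 47, 23, 10, 2, 0 and 2 of 94 (40.1, 24.6, 15.7, 5.51, 0.00269 and 5.22 percent of all 111638); with the other fold threshold 27, 25, 10, 10, 0 and 2 (54.5, 38.6, 27.4, 15.5, 0 and 10.6 percent of all tested). Voom gives 1 for pMN and p3, a difference of VST values 0 for p0-1 and pMN, and centring 1 for the difference of changes, as does the block with centring. With all replicates in, other counts stayed within 1.5 times the main ones. Leaving out replicate 1, 2 or 3 in turn gives 15 to 17, 5 to 9, 2 to 3, 0 to 2, 0 to 0 and 0 to 1 in the same order; where this leaves 1 sample at a SAG concentration, it is assumed to vary like the other groups. Of 35 calls of 11 named elements, 34 are kept by voom, 33 of 34 tested with centring, 32 with VST differences, 33 of 34, 29 of 33 and 33 of 34 without replicate 1, 2 and 3, and 32 without the p3 100 nM day 4 libraries; all are kept with no filter, with the other threshold, in 1 fit of all samples and with no trend, and none is reversed. Where a call was lost the cause was not tested. Of 273 levels, 257 stay within 1 SD with centring and all 273 without any replicate.

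With a replicate block from titles or descriptions the counts are 17, 7, 3, 1, 0 and 0, adding Interval_71589 of Meis2 from pMN to p3 at day 6 (2.04, adjusted p 2.116e-05), which 1 fit of all samples also adds; the block changed no other call of a member. For 15 samples the number in the title differs from that in the description.

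The shallowest libraries are those of p3 at day 4 with 100 nM SAG (9298160, 9577692 and 13974633 reads in elements), which limits p3 day 4 at low elements such as Interval_67679; without them 18, 6, 2, 1, 0 and 0 members are called. In the 200-base window 19.1 percent of members hold the Meis letters, 8.51 percent the Pbx-Hox letters and 2.13 percent the Foxa letters (16.2, 10.4 and 3.32 percent of all elements). Groups of 3 to 6 samples, bulk cells, the annotation by nearest gene and a single cell line bound all of these results; transcripts were not analysed here.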
